A study of Mus musculus with 6 samples.

Results

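The genes described here encode the constitutive proteasome of the mouse, together with its activators, its inhibitor and the chaperones that assemble it. They were taken as every gene whose name on the array starts with Psma, Psmb, Psmc, Psmd, Psme, Psmf or Psmg followed by a digit, leaving out Psmb8, Psmb9 and Psmb10, the subunits of the immunoproteasome. The rule found 46 genes on 58 probes among 34740 gene names on the array, and 45 of them were measured well enough to be tested among 26629 genes. Psmc3ip, 1 of the 46, is taken by the spelling of its name only: it encodes a cofactor of meiotic recombination, not a proteasome subunit, and it is described apart.

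Messenger RNA of whole spleen was measured on 6 Agilent 1-colour arrays. In 3 of them the mice had received 900 cGy of X-rays to the whole body 24 h earlier, and in the other 3 resting mice had received 0 cGy; all were of the strain B10.BALB-16.C2A, congenic by the title of the series. Each array carried pooled RNA of 3 mice, so the spread between arrays is a spread between pools, and the precision of every value below is limited by having 3 arrays per group. The labels give no age or sex of the mice. In whole tissue, fewer cells of a type and less RNA per cell cannot be told apart.

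The proteasome degrades proteins that carry ubiquitin chains. Its 20S core is a barrel of alpha and beta subunit rings, and the active sites sit inside on Psmb5 (chymotrypsin-like), Psmb6 (caspase-like) and Psmb7 (trypsin-like). The 19S particle caps the barrel: its base holds a ring of ATPases that unfold the substrate, and its non-ATPase subunits bind ubiquitin and cut it off. The activators Psme1 to Psme4 can cap the core in place of the 19S particle, Psmf1 (PI31) was first described as an inhibitor of the core, and dedicated chaperones build the core (Psmg1 to Psmg4) and the base (Psmd5, Psmd9 and Psmd10). In lymphoid tissue, Psmb8, Psmb9 and Psmb10 replace the catalytic subunits to a large extent, which gives the immunoproteasome.

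Levels are log2 processed signal minus the log2 of the array's 75th percentile, so that 0 is the brightness of the spot at that percentile, and changes are 900 cGy minus 0 cGy on this scale, with the standard error (SE) of the limma fit. A gene is called changed where the adjusted p of limma (Benjamini-Hochberg over all genes tested) was under 0.05. The spleens changed widely: 59.3% of all genes tested were called, 28.3% as higher and 31% as lower. Summed over fixed marker lists, erythroid genes stood at 8.07 to 13.1 in the irradiated arrays and 137 to 336 in the unirradiated arrays (8 of 8 called lower), B cell genes at 49.2 to 54.7 and 284 to 366 (8 of 8 lower), genes of dividing cells at 9.97 to 10.9 and 46.3 to 137 (7 of 7 tested lower), and macrophage genes at 586 to 613 and 152 to 159 (8 of 8 higher), in units of the 75th percentile. Exocrine pancreas genes, which mark another organ, stood at 1341 to 1704 in the irradiated arrays and 2.43 to 187 in the unirradiated ones, with 11 of 12 called higher. T cell genes stood at 27.2 to 27.9 in the irradiated and 57.1 to 80.1 in the unirradiated arrays (6 of 7 lower, 1 higher), fat genes at 31.1 to 35.0 and 2.09 to 3.07 (4 of 4 higher), and endothelial genes at 24.3 to 25.2 and 9.16 to 10.8 (3 of 4 higher). The B cell, T cell and macrophage markers were all well above background on every array, and among the other lists Rhd was not so on any irradiated array and Aurkb on none at all. Unirradiated replicate 3 was lowest of its group for the erythroid list, at 137 against 336 and 289. It was also lowest for the dividing-cell list, at 46.3 against 137 and 117. For the B cell list it was highest (366 against 284 and 320), and for the T cell list too (80.1 against 57.1 and 66.9). In the exocrine list replicate 2 stood out, at 187 against 2.43 and 34.1. Over all genes, replicate 3 correlated at r = 0.988 and 0.993 with replicates 1 and 2, which correlated at 0.992. The part of these differences in the results below was not tested, except where a value without replicate 3 is given.

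For most subunits of the proteasome itself the change was small or did not pass the test. Of the 31 subunits of the 20S core and the 19S particle, 4 were called higher (Psma3, Psma5, Psmb2 and Psmc1) and 4 lower (Psmb1, Psmd6, Psmd8 and Psmd14). So 25.8% were called, against the 59.3% of all genes tested. With scaling to spike-in probes, 0 of the 31 were higher and 6 lower, against 18% and 40.8% of all genes. Their changes lay between -0.47 (Psmd14) and 0.36 (Psma5), with a median of 0.02 and a median size of 0.14, whereas the median size over all genes was 0.48. The 31 subunits were also far brighter, at a median level of 3.97 against -0.99 over all genes. Their median SD between the irradiated arrays was 0.04, against 0.09 over all genes. Between the unirradiated arrays it was 0.15, against 0.17. A comparison with genes of like brightness was not made. With percentile scaling, no one of these 31 subunits reached a change of 0.5 in either direction, which 48.7% of all genes did. With spike-in scaling the 6 called lower passed it: Psmd14 (-0.76), Psmd6 (-0.65), Psmb7 (-0.61), Psmb1 (-0.60), Psmd8 (-0.55) and Psmc4 (-0.51). The share of all genes past 0.5 was not taken with that scaling. The median change of the 31 was then -0.27, and that of all genes -0.34. With percentile scaling, the 6 members that did reach 0.5 were the inhibitor gene Psmf1, the chaperone genes Psmd5, Psmd9 and Psmg2, the testis gene Psma8 and Psmc3ip. Of the 8 members for assembly chaperones and the inhibitor, 5 were lower (Psmf1, Psmd5, Psmd9, Psmg2 and Psmg1) and 0 were higher, with a median of -0.57. That is 62.5% lower, against 31% of all genes. The 8 join 3 role groups: 2 of 3 base chaperones, 2 of 4 core chaperones and the inhibitor were lower. They were joined with earlier results known, so the share only describes these genes. The calls of Psmd9 and Psmg1 did not hold with each array left out. Pomp, a core chaperone outside the naming rule, was higher (0.48, adjusted p = 0.0057), and at 0.20 with spike-in scaling (adjusted p = 0.400). Over the 45 members tested, 6 were higher and 10 lower, or 35.6%, and in 23 of them (51.1%) the 3 irradiated arrays lay all on 1 side of the 3 unirradiated arrays, against 67.4% of all genes.

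**Figure D1:**
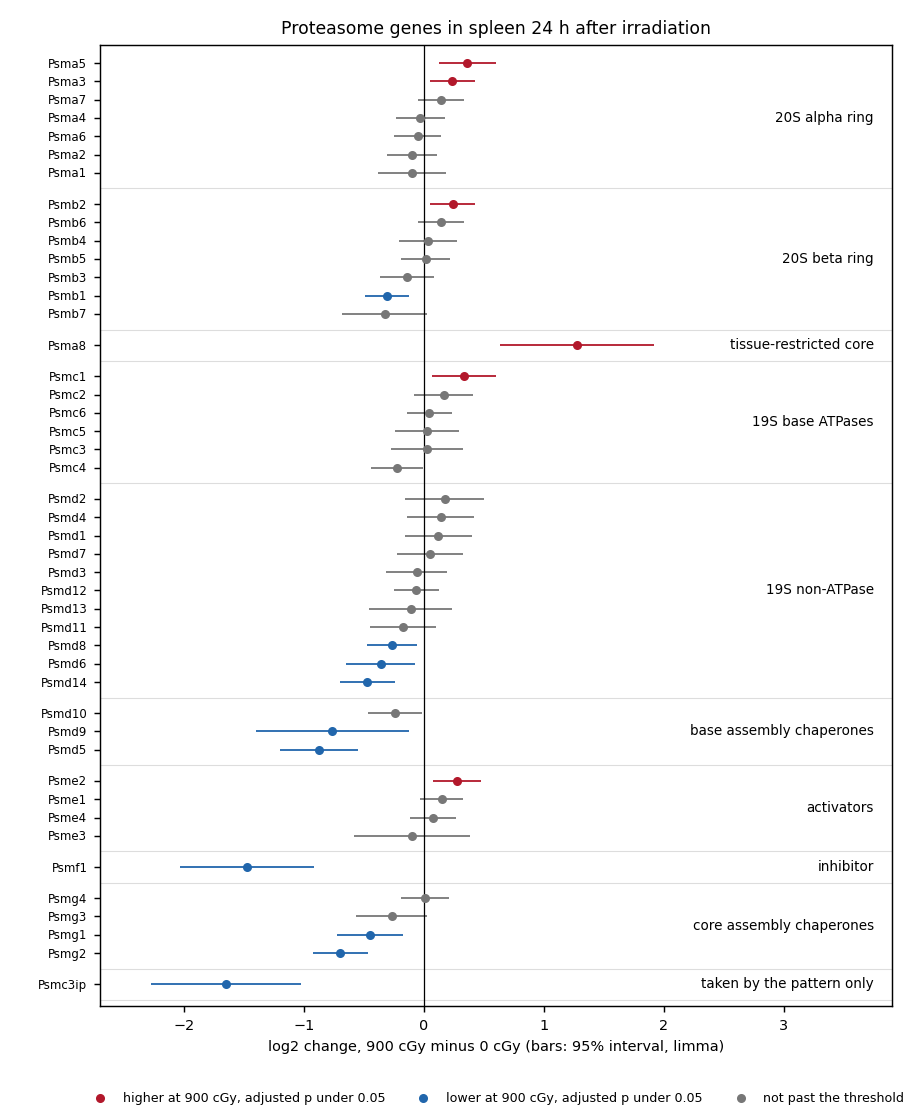
Log2 change (x axis, 900 cGy minus 0 cGy, arrays scaled to the 75th percentile) of the 45 tested members (y axis), grouped by role, with the 95% interval of the limma fit as bars and the call by colour. The core and 19S subunits lie between -0.47 and 0.36, while Psmf1 at -1.48, Psmd5 at -0.88, Psmd9 at -0.77 and Psmg2 at -0.70 lie to the left of them; with scaling to the spike-in probes every point moves left by the same amount, and Psma3, Psmb2 and Psme2 then lie just below 0.

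**Figure D2:**
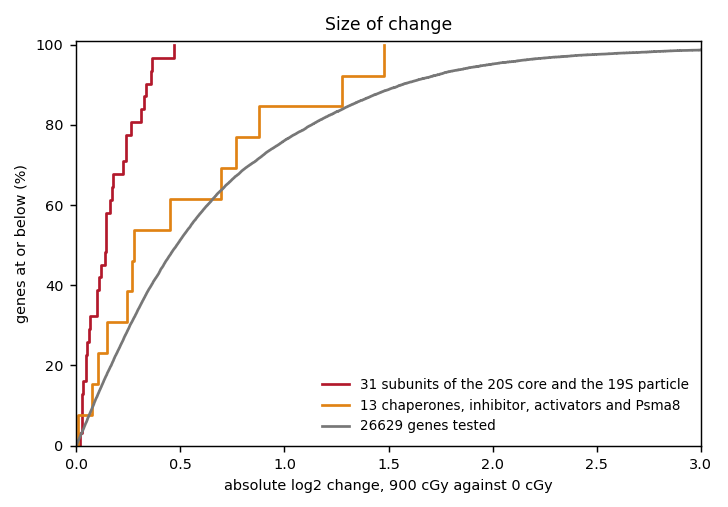
Share of genes (y axis, %) whose absolute log2 change (x axis, drawn up to 3) is at or below a given size, for the 31 subunits of the 20S core and 19S particle, for 13 other members (chaperones, inhibitor, activators and Psma8, without Psmc3ip) and for the 26629 genes tested. The curve of the 31 subunits reaches 100% before 0.5, where the curve of all genes stands near the middle of its height. This holds for percentile scaling only: with spike-in scaling some of the 31 subunits lie beyond 0.5, Psmd14 furthest at -0.76.

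For 29 of the 45 tested members the change did not pass the threshold. For 25 of those 29 the 95% interval lay within 0.5 on either side of 0, with percentile scaling. The interval that reached furthest down was that of Psmb7, to -0.68, and the one that reached furthest up was that of Psmd2, to 0.50. A p above the threshold does not show that the level stayed the same. These intervals give the sizes that the arrays could not tell from 0 with percentile scaling only. With spike-in scaling, some of the 29 were called lower by limma. They were Psmb7 (-0.61, adjusted p = 0.0240), Psmg3 (-0.56, 0.0233), Psmd10 (-0.53, 0.0280) and Psmc4 (-0.51, 0.0357).

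The place of the arrays on the slide and their scaling bear on the calls. All 6 arrays sat on 1 slide, with the 3 unirradiated arrays and irradiated replicate 1 in its first row and irradiated replicates 2 and 3 in its second. Within the first row alone, which leaves 1 irradiated array, 0 members were higher and 2 lower (Psmf1 and Psmc3ip), and 16.8% and 14.8% of all genes were; with the row as a block, 1 was higher (Psma8) and 4 lower (Psmf1, Psmd5, Psmg2 and Psmc3ip), against 21.3% and 23.6% of all genes. The second row holds no unirradiated array, so both fits take each change from irradiated replicate 1 alone against the 3 unirradiated arrays, and their p-values assume that this array varies as the others do; they are no separate support for a call. The other called members kept their direction within the first row, at an adjusted p above 0.05. Scaling the arrays to their 8 spike-in probes, and not to the 75th percentile, lowered the change of every gene by the same amount and put the median of all genes at -0.34, where it had been -0.06. With it 1 member was higher (Psma8) and 14 lower, and 18% and 40.8% of all genes were. Without unirradiated replicate 3, 6 members were higher and 16 lower, against 29.1% and 33.5% of all genes. Without replicate 1 or 2 of the unirradiated arrays, 3 and 2 members were higher and 7 lower each time. Without any 1 of the 3 irradiated arrays, 1 member was higher (Psma8) and between 5 and 8 were lower. For left-out arrays other than unirradiated replicate 3, the share of all genes was not taken. Those counts are therefore not read as particular to the members.

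**Figure D3:**
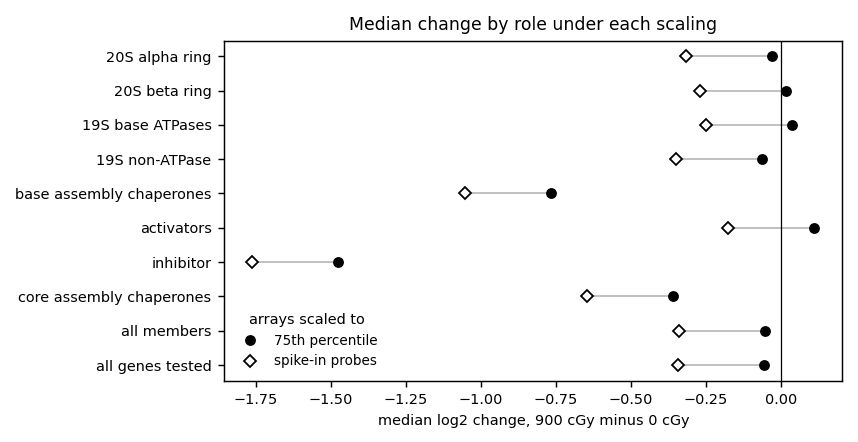
Median log2 change (x axis, 900 cGy minus 0 cGy) of each role group (y axis) with the arrays scaled to their 75th percentile (filled circles) and to the spike-in probes (open diamonds). All groups move left together, so that the core rings, the ATPases and the activators lie below 0 under the spike-in scaling, and the base chaperones, the inhibitor and the core chaperones lie furthest left under both.

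The 7 alpha subunits, which form the outer rings of the core and its gate, had a median change of -0.03, with 2 higher and 0 lower. Psma5 had the most positive change of the ring. Its level was 4.07, 4.04 and 4.11 in irradiated replicates 1 to 3 and 3.79, 3.8 and 3.54 in unirradiated replicates 1 to 3. All 3 irradiated arrays lay above all 3 unirradiated ones, and the change was 0.36 ± 0.10 (SE, n = 3 arrays per group, adjusted p = 0.0194), or 1.29-fold; with spike-in scaling it was 0.07 and did not pass. Psma3 was higher by 0.24 ± 0.08 (adjusted p = 0.0367), also without overlap, and stood at -0.05 with spike-in scaling. Both calls were lost when any 1 of the 3 irradiated arrays was left out (adjusted p = 0.0529 to 0.0732 for Psma5 and 0.0705 to 0.149 for Psma3). The call of Psma3 was also lost without unirradiated replicate 1 (0.0561) or 2 (0.0880). Within the first slide row the changes were 0.36 and 0.20, with adjusted p = 0.216 and 0.390.

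The other 5 alpha subunits did not pass. Psma7 (0.14), Psma4 (-0.03), Psma6 (-0.05), Psma2 (-0.10) and Psma1 (-0.10) lay within 0.15 of 0. Psma1, the most negative of them, stood at 4.11, 3.88 and 4.0 in the irradiated arrays and 4.23, 4.15 and 3.92 in the unirradiated arrays. The 2 sets of arrays overlapped, and the difference of 0.10 was smaller than the SD between the pools (0.12 in the irradiated and 0.16 in the unirradiated arrays). Within the first slide row its sign turned, to 0.01.

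Among the 7 beta subunits, 1 was higher and 1 lower, and the median change was 0.02. Both called genes encode subunits without an active site. Psmb2 stood at 1.18, 1.04 and 1.09 in the irradiated arrays and 0.87, 0.87 and 0.85 in the unirradiated arrays. The arrays did not overlap, and the unirradiated ones were close together, with an SD of 0.013. Its change was 0.24 ± 0.08 (adjusted p = 0.0357), and -0.05 with spike-in scaling. The call was lost when any 1 array other than unirradiated replicate 3 was left out, with adjusted p = 0.0553 to 0.115, and within the first slide row the change was 0.32 (adjusted p = 0.195). Psmb1 was lower by 0.31 on the log2 scale (SE 0.07, adjusted p = 0.0118), without overlap, and its call was lost without irradiated replicate 2 (0.0518) or 3 (0.0617) and within the first slide row (-0.26, adjusted p = 0.272). Psmb3 (-0.14) and Psmb4 (0.03), which also lack an active site, did not pass; Psmb4 turned to -0.01 within the first slide row.

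The catalytic subunits did not pass the test. Psmb5 stood at 5.88, 5.84 and 5.94 in the irradiated arrays and 5.93, 5.91 and 5.77 in the unirradiated arrays, and the 2 sets overlapped. Its change was 0.02 ± 0.09, with a 95% interval of -0.19 to 0.22. Psmb6 stood at 5.33, 5.32 and 5.34 in the irradiated arrays and 5.27, 5.18 and 5.12 in the unirradiated arrays. All 3 irradiated arrays were above the unirradiated ones, by 0.14 ± 0.08, at an adjusted p of 0.167. Psmb7 stood at 2.33, 2.26 and 2.28 in the irradiated arrays and 2.92, 2.54 and 2.38 in the unirradiated arrays. Here all 3 irradiated arrays were below, and the SD was 0.03 in the irradiated and 0.28 in the unirradiated arrays; the difference of -0.33 ± 0.15 had an adjusted p of 0.0995. It was -0.17 (adjusted p = 0.157) without unirradiated replicate 1, the highest array, and -0.44 (adjusted p = 0.0310) without unirradiated replicate 3, the lowest of that group.

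Each catalytic subunit shares its place in the ring with 1 immunoproteasome subunit, and the 3 pairs were compared within arrays, where scaling of the array cancels. Of the immunoproteasome subunits, Psmb10 (0.74, adjusted p = 6e-04) and Psmb9 (0.45, adjusted p = 0.0029) were higher and Psmb8 was not past the threshold (0.15, adjusted p = 0.275); with spike-in scaling the 3 stood at 0.45 (adjusted p = 0.0518), 0.16 (0.478) and -0.14 (0.579). Psmb7 minus Psmb10 was -3.93, -3.95 and -4.04 in the irradiated arrays and -2.50, -3.01 and -3.21 in the unirradiated arrays; since the probes differ, only the change of this difference can be read. It differed by -1.07 ± 0.22 (SE), without overlap. Psmb6 minus Psmb9 differed by -0.31 ± 0.07, also without overlap. Psmb5 minus Psmb8 differed by -0.13 ± 0.15, and its arrays overlapped. An exact two-sided permutation test gave p = 0.1, 0.1 and 0.5 for the 3 pairs, or 0.15, 0.15 and 0.5 after adjustment; 0.1 is the smallest p that 3 arrays against 3 allow, so no pair could pass. Within the first slide row the 3 changes were -1.02, -0.28 and -0.21.

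**Figure D4:**
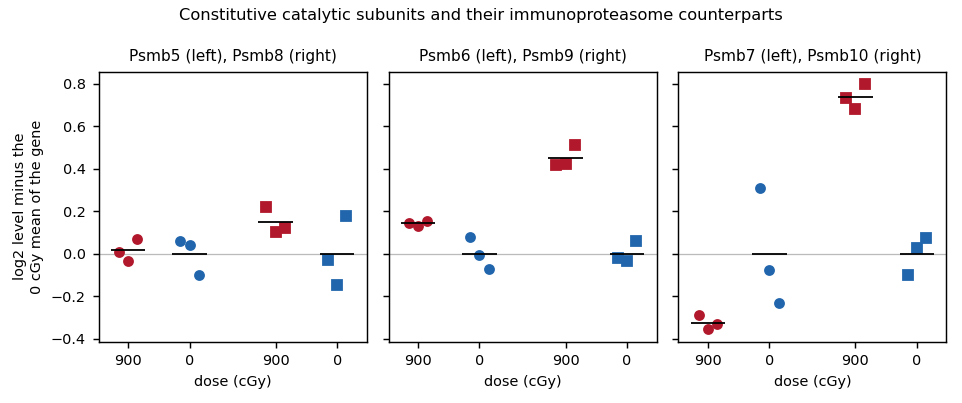
Log2 level minus the gene's own 0 cGy mean (y axis) on each array for Psmb5, Psmb6 and Psmb7 (circles) and for the immunoproteasome subunits Psmb8, Psmb9 and Psmb10 that take their places (squares), at 900 and 0 cGy (x axis), with bars at the group means. The irradiated arrays of Psmb10 and Psmb9 lie above their unirradiated arrays and those of Psmb7 below, while Psmb5 and Psmb8 overlap; with spike-in scaling all irradiated points lie lower by the same amount.

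The promoters of Psmb5, Psmb6 and Psmd9 are shown because they hold a match to a motif of Nfe2l1 and Nfe2l2. These factors are known to drive proteasome genes through antioxidant response elements. Whether they act on these promoters in the spleen was not tested. The windows of Psmc6, Psmd12 and Psme4 hold a match too and are not shown. Each promoter is a 300-base window from RefSeq (GRCm38.p6), from 250 bases before to 50 after the start of the gene. The capitals mark a match to the core TGACNNNGC of that element. The Psmb5 window lies at chr14:54617946-54618245 on the minus strand and the Psmb6 window at chr11:70525107-70525406 on the plus strand, and that of Psmd9, a chaperone of the 19S base described further on, at chr5:123227940-123228239 on the plus strand.
Psmb5: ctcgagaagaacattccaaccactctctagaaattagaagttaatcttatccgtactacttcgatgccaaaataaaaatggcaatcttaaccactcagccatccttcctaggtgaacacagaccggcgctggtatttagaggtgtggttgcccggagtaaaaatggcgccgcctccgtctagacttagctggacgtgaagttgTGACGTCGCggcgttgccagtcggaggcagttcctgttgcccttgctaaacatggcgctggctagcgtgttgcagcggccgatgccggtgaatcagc
Psmb6: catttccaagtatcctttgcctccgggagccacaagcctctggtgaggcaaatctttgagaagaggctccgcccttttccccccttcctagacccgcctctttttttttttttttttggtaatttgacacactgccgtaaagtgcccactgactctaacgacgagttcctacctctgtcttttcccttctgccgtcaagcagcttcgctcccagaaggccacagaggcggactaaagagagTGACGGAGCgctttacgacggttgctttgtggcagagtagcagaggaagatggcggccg
Psmd9: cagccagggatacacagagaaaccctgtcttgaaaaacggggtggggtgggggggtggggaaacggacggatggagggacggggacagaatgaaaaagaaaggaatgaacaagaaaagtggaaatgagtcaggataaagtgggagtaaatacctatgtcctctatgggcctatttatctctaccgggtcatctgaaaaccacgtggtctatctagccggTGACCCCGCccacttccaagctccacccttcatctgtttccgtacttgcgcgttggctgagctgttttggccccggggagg

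Of the 46 members, 38 had a promoter in the RefSeq table of 27025 genes. Searched on both strands (TGACNNNGC and GCNNNGTCA), the core stood in 6 of the 38 (15.8%: Psmb5, Psmb6, Psmc6, Psmd12, Psmd9 and Psme4), against 14% of all promoters. The box CCAAT, or ATTGG on the other strand, which the factor NF-Y binds, stood in 14 (36.8%), against 41.1%. Neither motif contains the other. Of the 6 genes with the antioxidant core, Psmd9 was lower and the other 5 did not pass (Psmb5 0.02, Psmb6 0.14, Psmc6 0.04, Psmd12 -0.06 and Psme4 0.07). A match in these letters is a description of the window only.

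The 6 ATPases of the 19S base had a median change of 0.04, with 1 higher and 0 lower. Psmc1 stood at 5.45, 5.44 and 5.48 in the irradiated arrays and 5.24, 5.22 and 4.91 in the unirradiated arrays. It was higher by 0.33 ± 0.11 (adjusted p = 0.0387) without overlap, at 0.05 with spike-in scaling, and without unirradiated replicate 3, the lowest array, the change was 0.23. The call was lost without unirradiated replicate 2 (adjusted p = 0.0540) or any 1 irradiated array (0.0889 to 0.110) and within the first slide row (0.33, adjusted p = 0.280), and another probe of Psmc1 gave 0.17 with an adjusted p of 0.198 in the fit over probes. Psmc4 was the most negative, at 3.30, 3.27 and 3.32 in the irradiated arrays and 3.64, 3.52 and 3.41 in the unirradiated arrays. The arrays did not overlap, but the difference of -0.22 ± 0.09 had an adjusted p of 0.0702. Psmc2 (0.16), Psmc6 (0.04), Psmc5 (0.03) and Psmc3 (0.03) did not pass.

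Of the 11 non-ATPase subunits of the 19S particle, 3 were lower and 0 higher, and the median change was -0.06, or -0.16 without unirradiated replicate 3. Psmd14 (Rpn11), the enzyme that cuts the ubiquitin chain off the substrate as it enters, had the largest fall of all core and 19S subunits. It stood at 0.83, 0.65 and 0.79 in the irradiated arrays and 1.30, 1.26 and 1.11 in the unirradiated arrays. The sets of arrays were apart by more than their own spread, and the change was -0.47 ± 0.09 (adjusted p = 0.0053), or 1.39-fold lower. It was called whichever array was left out and under each scaling, and within the first slide row it was -0.40 with an adjusted p of 0.147.

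Psmd6 (-0.36, adjusted p = 0.0385) and Psmd8 (-0.27, adjusted p = 0.0360), 2 structural subunits of the lid, were also lower without overlap. Psmd6 kept its call only when irradiated replicate 1 or unirradiated replicate 3 was left out, with adjusted p = 0.0620 to 0.126 for the other 4 arrays. Psmd8 kept it only without unirradiated replicate 2 or 3, with 0.0712 to 0.116 for the others. Within the first slide row they were at -0.25 (adjusted p = 0.404) and -0.24 (0.347). Psmd2 (Rpn1), a scaffold that docks ubiquitin receptors, was the most positive of the group. It stood at 4.94, 4.93 and 4.85 in the irradiated arrays and 4.94, 4.80 and 4.46 in the unirradiated arrays, which overlapped, and its change of 0.17 ± 0.14 did not pass (adjusted p = 0.315). The scaffold Psmd1 (0.12), the ubiquitin receptor Psmd4 (0.14), and Psmd7 (0.05), Psmd3 (-0.06), Psmd12 (-0.06), Psmd13 (-0.11) and Psmd11 (-0.17) did not pass either.

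Of the 3 chaperones that hold the ATPases until the base is built, 2 were lower and 0 higher, with a median of -0.77, and in each of the 3 the irradiated arrays all lay below the unirradiated ones. Psmd5 (S5b in human) stood at 0.84, 0.80 and 0.78 in the irradiated arrays and 1.93, 1.71 and 1.43 in the unirradiated arrays. The gap between the groups was wider than the whole spread of the unirradiated pools, and the change was -0.88 ± 0.14 (adjusted p = 0.0018), or 1.84-fold lower. It was called whichever array was left out, and within the first row it was -0.85 with an adjusted p of 0.0548. Psmd9 (the chaperone p27) stood at 0.75, 0.81 and 0.80 in the irradiated arrays and 2.0, 1.72 and 0.93 in the unirradiated arrays. Unirradiated replicate 3 lay far closer to the irradiated arrays than to the other 2, by 0.93 below their mean. The change was -0.77 ± 0.26 (adjusted p = 0.0440), or 1.70-fold lower. Without unirradiated replicate 3 it was -1.07 (adjusted p = 6e-04), and leaving out any 1 of the other 5 arrays ended the call, with adjusted p = 0.0949 to 0.125. Within the first slide row it was -0.80 (adjusted p = 0.216).

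Psmd10 (gankyrin), which binds the ATPase Psmc4 and is also known as an oncoprotein, stood at 0.78, 0.93 and 0.98 in the irradiated arrays and 1.23, 1.12 and 1.07 in the unirradiated arrays. Its arrays did not overlap, and the difference of -0.24 ± 0.09 missed the threshold (adjusted p = 0.0630). The probes of Psmd5 and Psmd9 are shown because their values carry these falls: each is a 60-base probe, placed on mm9, at chr2:34708108-34708167 on the minus strand for Psmd5 and at chr5:123691881-123691940 and chr5:123698524-123698583 on the plus strand for the brighter and the dimmer probe of Psmd9.
Psmd5: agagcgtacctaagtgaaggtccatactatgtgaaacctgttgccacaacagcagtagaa
Psmd9, brighter probe: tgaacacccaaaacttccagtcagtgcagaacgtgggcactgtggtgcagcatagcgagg
Psmd9, dimmer probe: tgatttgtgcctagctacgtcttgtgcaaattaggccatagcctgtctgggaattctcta
The dimmer probe of Psmd9 showed the same order of the unirradiated arrays and the same side, at -0.46, -0.48 and -0.50 in the irradiated and 0.57, 0.13 and -0.36 in the unirradiated arrays. Its change was -0.59 ± 0.22, with an adjusted p of 0.0593 in the fit over probes.

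The chaperones of the core showed the same direction in part. Of the 4 that the naming rule takes, 2 were lower and 0 higher, with a median of -0.36, while Pomp, described further on, was higher. Psmg2 (PAC2), which pairs with Psmg1 (PAC1) to build the alpha ring, stood at 1.77, 1.69 and 1.68 in the irradiated arrays and 2.48, 2.49 and 2.26 in the unirradiated arrays. The gap between the groups was wider than the spread of either, and the change was -0.70 ± 0.09 (adjusted p = 0.0010), or 1.62-fold lower. It was called whichever array was left out, and within the first row it was -0.64 with an adjusted p of 0.0566. Its partner Psmg1 was lower by 0.45 on the log2 scale (SE 0.11, adjusted p = 0.0146), and another probe gave -0.55. The call of Psmg1 was lost without unirradiated replicate 2 (adjusted p = 0.0531) or irradiated replicate 3 (0.0589), and within the first slide row its change was -0.39 with an adjusted p of 0.214.

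The other pair of core chaperones, Psmg3 and Psmg4, did not pass. Psmg3 was at -0.27 ± 0.12 (adjusted p = 0.104), with overlapping arrays, and at -0.39 (adjusted p = 0.0062) without unirradiated replicate 3. Psmg4 stood at 2.19, 2.05 and 2.03 in the irradiated arrays and 2.06, 2.12 and 2.05 in the unirradiated arrays. These overlapped throughout, and the change was 0.01 ± 0.08.

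Psmf1, the PI31 gene, had the largest change among the members that belong to the proteasome. It stood at -0.96, -1.02 and -1.05 in the irradiated arrays and 0.93, 0.50 and -0.03 in the unirradiated arrays. The irradiated pools were almost alike, with an SD of 0.05, and the unirradiated pools were far more spread, with an SD of 0.48, yet the lowest of them lay above every irradiated pool. The change was -1.48 ± 0.23 (adjusted p = 0.0020), or 2.78-fold lower. It was called whichever array was left out and under each scaling and background correction tried, with changes between -1.76 and -1.24. It was -1.42 within the first slide row, with its 1 irradiated array (adjusted p = 0.0480). Unirradiated replicate 3 lay 0.75 below the mean of the other 2 unirradiated arrays, and without it the change was -1.72. In that array the medians of the erythroid and the dividing-cell lists lay 1.40 and 1.41 below. Those of the B cell and T cell lists lay 0.40 and 0.41 above. The median of the exocrine pancreas list lay furthest off, at 1.48 above. Those of the endothelial and macrophage lists lay 0.23 and 0.13 above, and that of the fat list was at -0.12. The part of the cell types in this change was not tested. The probe that carries this result lies at chr2:151555353-151555412 (mm9, minus strand).
Psmf1: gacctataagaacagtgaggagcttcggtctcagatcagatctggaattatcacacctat

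**Figure D5:**
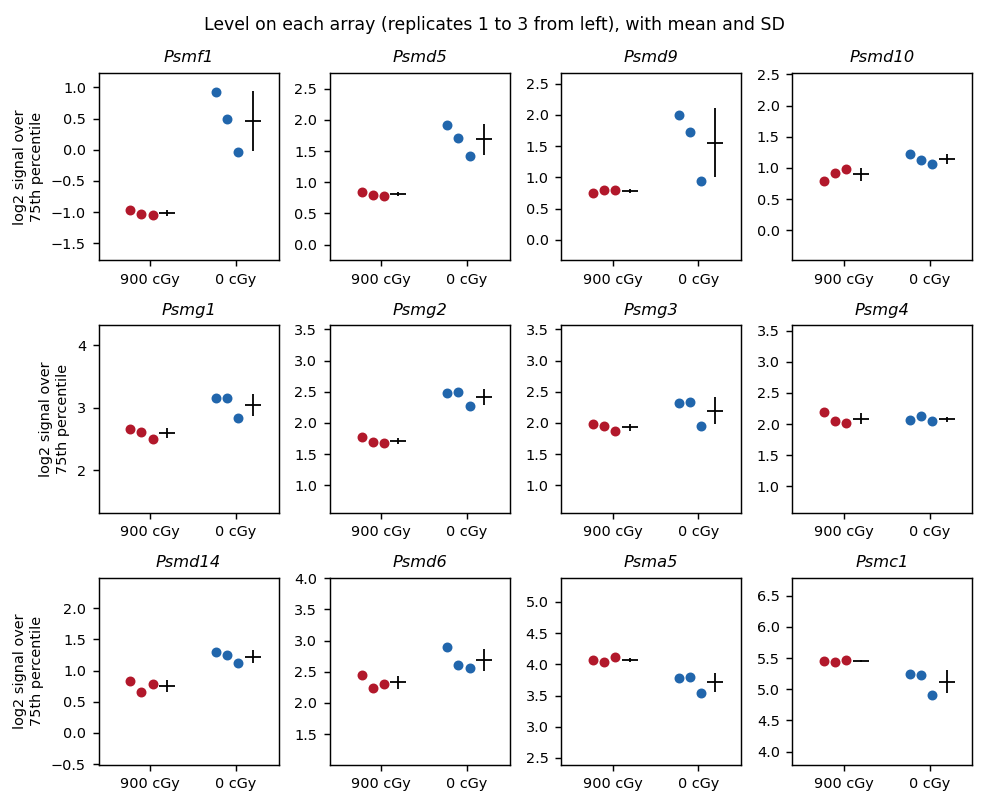
Log2 level over the array's 75th percentile (y axis) on each array for 12 members, in the irradiated pools (red, left) and the unirradiated pools (blue, right), with the mean and SD beside the points; each panel spans the same range. In Psmf1, Psmd5, Psmg2 and Psmd14 the groups are apart and in Psmg4 they overlap, and in Psmd9 unirradiated replicate 3 lies next to the irradiated points; Psma5 and Psmc1 are higher with this scaling but at 0.07 and 0.05 with the spike-in scaling.

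Of the 4 activators, 1 was higher and 0 lower, with a median of 0.11. Psme1 and Psme2 encode the PA28 alpha and beta subunits, an interferon-inducible cap that favours the making of peptides for MHC class I. Psme2 stood at 6.68, 6.67 and 6.76 in the irradiated arrays and 6.34, 6.47 and 6.48 in the unirradiated arrays. The sets did not overlap, and the change was 0.28 ± 0.08 (adjusted p = 0.0266), or 1.21-fold, but -0.01 with spike-in scaling. The call was lost when any 1 array other than unirradiated replicate 3 was left out (adjusted p = 0.0558 to 0.108) and within the first slide row (0.25, adjusted p = 0.312). Psme1 stood at 5.51, 5.50 and 5.56 in the irradiated arrays and 5.37, 5.34 and 5.42 in the unirradiated arrays. All 3 irradiated arrays were above, by 0.15 ± 0.07, which did not pass (adjusted p = 0.133), and it was at -0.14 with spike-in scaling; its probe was printed in 10 spots per array, which were averaged.

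Psme3 (PA28 gamma), a nuclear activator that works without ubiquitin, stood at 2.05, 2.32 and 2.43 in the irradiated arrays and 2.33, 2.74 and 2.03 in the unirradiated arrays. It overlapped, had the widest interval of the activators (-0.59 to 0.38) and a change of -0.10 ± 0.20. Psme4 (PA200), a single large cap known for its role in spermatogenesis and histone turnover, stood at 0.41, 0.35 and 0.49 in the irradiated arrays and 0.38, 0.35 and 0.30 in the unirradiated arrays. It overlapped too, at 0.07 ± 0.08.

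Of 11 members with several probes, the sign differed between probes for 4 (Psmb5, Psmc3, Psmd12 and Psme2) and the call for 3 (Psmc1, Psmd9 and Psme2). The 3 probes of Psme2 are shown in the order of their brightness, since the brightest was called higher, the dimmest lower and the other not at all. They lie on the minus strand of mm9, at chr14:56206296-56206355, at chr14:56208888-56209346 and, with ends 219297 bases apart, at chr14:56209736-56429032. They share no run longer than 7 bases.
Psme2, brightest probe: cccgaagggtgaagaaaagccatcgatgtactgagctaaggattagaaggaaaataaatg
Psme2, middle probe: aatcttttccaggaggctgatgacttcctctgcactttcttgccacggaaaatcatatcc
Psme2, dimmest probe: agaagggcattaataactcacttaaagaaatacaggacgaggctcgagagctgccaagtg
In the fit over probes the brightest gave 0.28 (adjusted p = 0.0315) and the middle one 0.15 (adjusted p = 0.258). The dimmest stood at 1.05, 0.98 and 1.03 in the irradiated arrays and 1.37, 1.40 and 1.85 in the unirradiated arrays, and its change was -0.52 ± 0.14 (adjusted p = 0.0202). The mean of the 3 probes was at -0.03. The files name the dimmest probe Psme2 but list it under another transcript than the brighter probes, and whether it measures Psme2 could not be settled, so its fall and the mean of the probes are not read as changes of Psme2. RefSeq also lists a copy, Psme2b, and signal from it cannot be told apart on a probe that matches both.

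Psma8 and Psmb11 are core subunits of single tissues, of the testis and of the thymic cortex. Psmb11 did not rise well above background in any of the 6 hybridisations and was not tested. Psma8 was well above background on all 3 irradiated arrays, at -5.29, -5.45 and -5.21, and on no unirradiated array, at -5.97, -6.93 and -6.89. On those arrays it was set at their lowest signal well above background, or at its own signal where that was higher. Against this its level was 1.84-fold higher after irradiation. That lowest signal comes from other spots, so the fold is no firm minimum. The fitted change of 1.28 had an adjusted p of 0.0063, but Psma8 passed the filter on dim probes only through the irradiated arrays, where it is high, so its place in the counts above is no support for a change. With all 6 arrays required to be well above background it was not tested. The members then counted 5 higher and 10 lower of 44, and the share of all genes was not taken. With no filter on dim probes Psma8 was called as well. With another background correction, which adds an offset to every spot, the fitted change of Psma8 was 0.33, so its size rests on how dim spots are treated. Within the first slide row it was 1.30.

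Psmc3ip, which is no proteasome gene, had the largest fall of all 46. It stood at -2.26, -2.30 and -2.40 in the irradiated arrays and -0.18, -0.59 and -1.25 in the unirradiated arrays, and the change was -1.65 ± 0.26 (adjusted p = 0.0020), or 3.14-fold lower. Unirradiated replicate 3 was again the lowest of its group, 0.86 below the mean of the other 2. Within the first slide row the change was -1.59 (adjusted p = 0.0466). Without Psmc3ip the members counted 6 higher and 9 lower of 44 tested (34.1%).

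Beyond the members, a list of 28 genes that work with the proteasome was set out, of which 27 were on the array and all 27 were tested. Of these 6 were higher and 7 lower (48.1%, against 59.3% of all genes), with a median of -0.07; within the first slide row 2 were higher and 0 lower, against 16.8% and 14.8% of all genes. Nfe2l1 and Uba6 were among the largest changes. Nfe2l1 (Nrf1), the factor that raises proteasome genes when proteasome activity falls short, stood at -0.48, -0.28 and -0.39 in the irradiated arrays and -1.40, -1.14 and -1.18 in the unirradiated arrays. It was higher by 0.86 ± 0.11 (adjusted p = 7e-04), and by 0.57 (adjusted p = 0.0134) with spike-in scaling. Uba6, an enzyme that activates ubiquitin and the ubiquitin-like Fat10, was at -2.55, -2.67 and -2.69 in the irradiated arrays and -2.0, -1.95 and -1.63 in the unirradiated arrays, with a change of -0.77 ± 0.12 (adjusted p = 0.0019).

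Partner genes that were also higher included Zfand2a (0.67), a heat- and arsenite-inducible proteasome adaptor, Pomp (0.48), the chaperone that matures the core, Ubqln2 (0.42), a shuttle that brings ubiquitinated proteins to the 19S particle, and Nfe2l2 (0.40), the Nrf2 gene. Those that were also lower included the 19S-bound deubiquitinase Uchl5 (-0.66), Ubqln4 (-0.53), Rps27a (-0.42), which encodes ubiquitin fused to a ribosomal protein, and the ligase Ube3c (-0.31). With spike-in scaling Nfe2l1 was the 1 partner gene called higher, and 9 were lower, against 18% and 40.8% of all genes.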

How the data were processed

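RNA of spleen, pooled from 3 mice per array per the design text, was hybridised to 6 Agilent 1-colour arrays. Per the file headers, Agilent Feature Extraction 10.5.1.1 gave the deposited intensity of each spot. It was background-subtracted, detrended and with a surrogate value for weak spots, but not normalized between arrays. Folds of dim genes rest on how weak spots are treated, and whether they are compressed was not tested. A value table by the authors holds deposited log2 values that followed the same scaling to the 75th percentile (Pearson r over probes 0.99994 to 0.99997 per array), centred on each probe, with column medians of -0.025, 0.018 and -0.0082 for the irradiated and 0.047, -0.0059 and -0.047 for the unirradiated arrays; it served as an alternative.

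From log2 processed intensity the log2 75th percentile of the array was subtracted (1144, 1114 and 1182 in the irradiated and 1166, 1152 and 1403 in the unirradiated arrays) over 59305 non-control spots, without the 91 to 146 spots per array flagged as outliers. No non-control spot was saturated. Spots of 1 probe were averaged, and a gene is its brightest probe, kept where 1 group or both had it well above background throughout; between 39017 and 41244 of 55681 probes were well above background per array. Names came from RefSeq (27265 probes by accession, 3521 by symbol, 551 by synonym) or from the files (24282 by the file's name and 62 by the member rule); probe positions are on mm9, as the files give them.

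Groups and replicate numbers come from the titles. They were compared with limma 3.58.1 in R 4.3.3 (lmFit and eBayes, two-sided, Benjamini-Hochberg over 26629 genes, threshold 0.05), and the pairs of catalytic subunits with an exact permutation test over arrays. In a simulation of 26629 genes, 100 were changed by 1 and 100 by 2 on the log2 scale. Of these changes 63% and 88% were recovered, with 4 false calls. Far fewer genes changed there than the 59.3% called in the data, and the adjusted p depends on that share. The recovery and the false calls therefore do not carry over to this comparison. Same-numbered arrays of the 2 groups did not deviate together (r = 0.073, 0.12 and -0.0019), so no pairing was used. Where a group nowhere reached well above background, the fold was taken against the array's lowest signal that did or the probe's own, whichever was higher. Such a fold is no firm minimum. The alternatives were other background corrections, scalings and filters, the mean of probes, the authors' table, blocks for replicate number and slide row, and leaving out each array.

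Per-array values are given for the most positive and most negative member of each role, for Psmb5, Psmb6, Psmb7, the activators and Psmf1, and for the 3 partner genes with the largest change; other probes, the immunoproteasome subunits and the other called genes were described besides. The members, lists and tests were chosen with earlier results of these data known. Nothing in the labels says more of the pools than that they hold 3 mice each, so p-values measure the spread between these pools. Some genes of the partner list are counted but not reported here by name, and Paaf1 had no match on the array. Protein sequences were not used here.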

Additional observations from a re-analysis of the deposited data

How the results depend on the processing

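The 6 higher and 10 lower members came to 3 higher with scaling to the median or with no filter on dim probes, to 1 higher with spike-in scaling, to 1 higher and 4 lower with the slide row as a block, and to 0 higher and 2 lower within its first row, where 1 irradiated array is left. Leaving out 1 array gave 1 to 6 higher and 5 to 16 lower members. Over all 26629 genes, 7531 were higher and 8256 lower, and 7329 and 8090 with scaling to the median. For the other filters, the replicate block and left-out arrays other than unirradiated replicate 3, counts over all genes were not taken. Under these settings a drop in the members cannot be set against that of all genes. With the replicate number as a block, 1 member was higher and 9 lower; same-numbered arrays share only a number. The partner list came to 1 higher with spike-in scaling, to 4 lower with the row block and to 2 higher and 0 lower within the first row. The row block was not run for the catalytic pairs, whose 3 differences kept their sign under each alternative that was. Psmf1 and Psmc3ip were called under all 18 alternatives, of which the slide row, as a block or alone, leaves 1 irradiated array to carry the change, and Psmd14, Psmd5 and Psmg2 under all that leave the slide row out of account. For single genes, 772 values kept their direction and side of the threshold, 89 lost the call, 17 gained it and 39 changed sign.

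By construction, spike-in scaling lowers the change of each gene by the same amount; it put the medians of the alpha ring, beta ring, ATPases, non-ATPase subunits, activators, core chaperones and all members at -0.32, -0.27, -0.25, -0.35, -0.18, -0.65 and -0.34. Signs that turned under it were those of Psma3 (-0.050), Psma7 (-0.14), Psmb2 (-0.047), Psmb4 (-0.25), Psmb5 (-0.27), Psmb6 (-0.14), Psmb8 (-0.14), Psmc2 (-0.12), Psmc3 (-0.26), Psmc5 (-0.26), Psmc6 (-0.24), Psmd1 (-0.17), Psmd2 (-0.11), Psmd4 (-0.15), Psmd7 (-0.24), Psme1 (-0.14), Psme2 (-0.0091), Psme4 (-0.21) and Psmg4 (-0.28). The mean of probes put Psmb5, the median of the beta ring, at -0.067, Psmc3 at -0.053, Psmd12 at 0.029 and Psme2 at -0.032. Normexp background correction put Psma8 at 0.33 and Psmg4 at -0.014, and with quantile normalization Psma8 at 0.29 and the beta ring at 0.10. The slide row, as a block or alone, put Psma1 at 0.013 and Psmb4 at -0.0083. Leaving out 1 array gave non-ATPase medians of -0.16 (without unirradiated replicate 3) to -0.023. Leaving out 1 array turned signs within ranges of -0.069 to 0.0045 for Psma4, -0.055 to 0.082 for Psmb4, -0.035 to 0.046 for Psmb5, -0.10 to 0.10 for Psmc3, -0.076 to 0.080 for Psmc5, -0.037 to 0.15 for Psmd7, -0.27 to 0.085 for Psme3 and -0.040 to 0.041 for Psmg4. Apart from the spike-in shift, the cause of these moves was not tested. Psma8 and Psmb11 are limited by signal near background.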
